A study of Mus musculus with 2 samples.

Results

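The cells examined were adipocyte precursors, the fibroblast-like cells of fat tissue that give rise to fat cells, and the genes examined were 37 cell cycle genes. The list comprised 16 G2/M genes, 14 S phase genes, 3 D cyclins and 4 cell cycle inhibitors, chosen by name, and all 37 were found among the 27998 genes of the count table. The precursors were flow-sorted from subcutaneous fat of mouse pups aged 12 days that had been cross-fostered, and the study has 2 samples, 1 from pups on milk with a high n-6/n-3 ratio of polyunsaturated fatty acids and 1 from pups on milk with a low ratio. All pups were wild type, and the labelled difference between the 2 groups is the milk of the foster dam. Each group is 1 library, so milk cannot be told apart from library or litter. The labels state 3000 sorted cells per condition, describe the cells both as fresh and as frozen in serum with DMSO and thawed, and do not say how many pups were pooled. No label ties either barcode suffix of the count table to a milk, so the libraries with suffixes 1 and 2 are called library 1 and library 2 and no milk is attached to either.

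The cell division cycle is driven by cyclins that activate cyclin-dependent kinases. D cyclins bind CDK4 and CDK6 and answer to growth signals, and their kinases release the E2F transcription factors that switch on the genes of DNA replication. Mitotic genes follow later, many of them through the MuvB complex with B-MYB and FOXM1, and CDK inhibitors hold the kinases back. Adipocyte precursors divide in early postnatal fat and leave the cycle as they become fat cells, so these genes are commonly used to separate dividing from resting precursors.

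Library 1 had 3321 barcodes and 42092816 unique molecular identifiers (UMIs, which count captured RNA molecules), and library 2 had 3584 barcodes and 43491307 UMIs. After filtering, 3307 and 3578 cells were kept, with medians of 12962 and 12112.5 UMIs per cell, and 17 barcode sequences occurred in both libraries. Levels are UMIs per 1000000 UMIs of the summed cells (CPM), and because 3′ counting takes each transcript at its end they were not divided by gene length. Each condition is a single library, so no test was made. Every 95% interval is exact, covers counting error only and says nothing of differences between animals. Of 6885 kept cells, 114 lay in clusters led by markers of other cell types, with 49 endothelial-like, 47 macrophage-like and 18 erythroid-like cells, the last in library 1 alone. The endothelial-like cells also had raised mural, adipocyte, erythroid and committed preadipocyte markers (7 of 12 of the last list) and a median of 19074 UMIs. The 5 erythroid markers summed to 5019.5 CPM in non-cycling cells of library 1 and 104 CPM in those of library 2. In cycling cells the 8 endothelial markers summed to 187 CPM, against 95.6 CPM in non-cycling cells, and the 10 macrophage markers to 141 CPM, against 78.4 CPM, with none of either list at 0. The 5 mast cell or granulocyte markers summed to 45.6 CPM in cycling cells, with Cpa3, Mcpt4 and Tpsb2 at 0, against 1.86 CPM in non-cycling cells. The part of RNA of these cell types in the values of cycling cells was not tested beyond leaving out their clusters.

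Phase was assigned to each cell from 40 S and 40 G2/M anchor genes, none of them among the 37. The median cell had 2.78 S anchor UMIs per 10000, and cells above 9.70 were taken as S. The corresponding values for the G2/M anchors were 9.11 and 23.2. In library 1, 80 cells (2.42%) passed the S threshold only, 35 (1.06%) both thresholds and 35 (1.06%) the G2/M threshold only. In library 2 these numbers were 86 (2.40%), 46 (1.29%) and 61 (1.70%). Cells that passed either threshold are called cycling, 150 of 3307 in library 1 (4.54%, 95% interval 3.85 to 5.30%) and 193 of 3578 in library 2 (5.39%, 95% interval 4.68 to 6.19%). The intervals overlapped, the S shares lay close together, and the G2/M share was higher in library 2, although its interval (1.31 to 2.18%) overlapped that of library 1 (0.738 to 1.47%). Cells in both anchor groups had a median of 16384 UMIs, against 12440.5 in non-cycling cells. The part of cell pairs sharing a barcode in this was not tested. S cells had medians of 11830 UMIs in library 1 and 15181.5 in library 2. The cycling cells took in 11 of 49 endothelial-like and 7 of 47 macrophage-like cells. Of 166 S cells, 11 had no UMI of any listed S gene. Of 96 G2/M cells, 6 had no UMI of any listed G2/M gene.

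**Figure D1:**
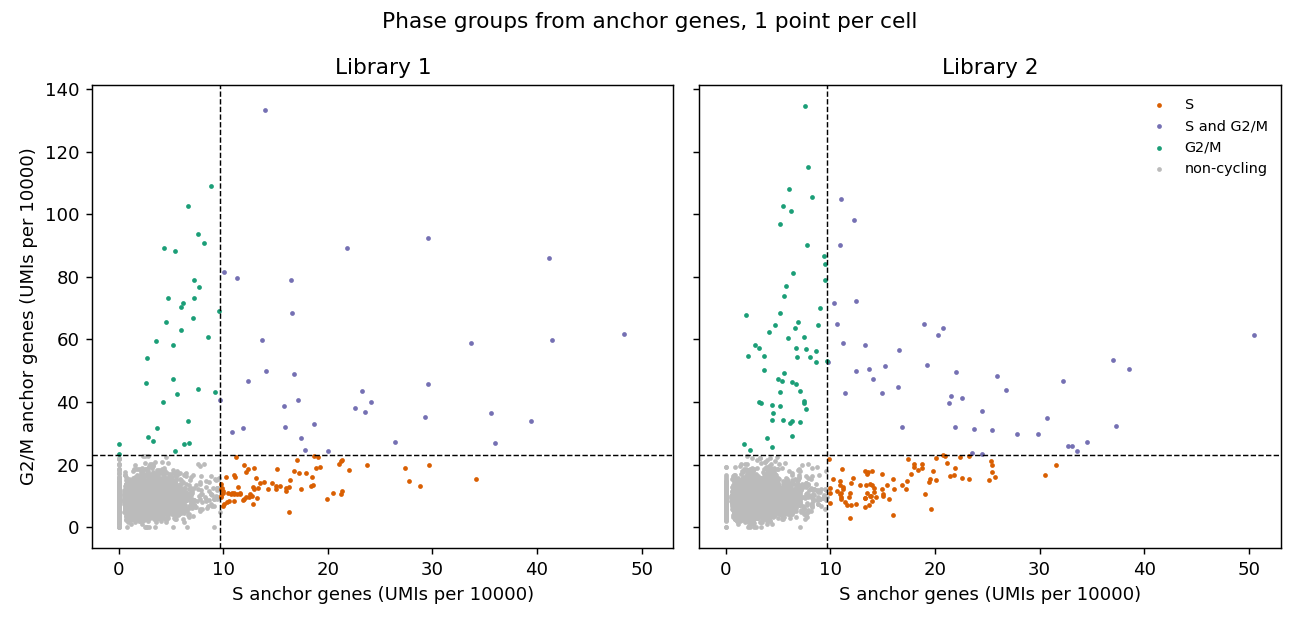
S anchor UMIs per 10000 (x axis) and G2/M anchor UMIs per 10000 (y axis) of each kept cell, in library 1 (left) and library 2 (right), coloured by phase group, with dashed lines at the thresholds of 9.70 and 23.2. The non-cycling cells form 1 dense group below both lines, and the cycling cells spread along an arc, 150 in library 1 and 193 in library 2.

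The G2/M genes separated the groups widely. All 16 were at least 2-fold higher in cycling than in non-cycling cells in both libraries, where, with both libraries together, 6.35% of 7402 measured genes (those with 10 CPM or more in either sum) were 2-fold or more higher and 0.203% were 2-fold or more lower. These shares were 7.12% and 0.388% in library 1 and 6.56% and 0.298% in library 2. Their median log2 fold was 5.21, with 5.33 in library 1 and 5.15 in library 2, beside 0.11 over all measured genes. The 80 anchor genes that set the groups are among those all genes, and cycling cells were chosen by genes of the same programme, so the share over all genes is given as background only.

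Ube2c, the ubiquitin-conjugating enzyme of the anaphase-promoting complex, had 208 and 312 CPM in cycling cells of libraries 1 and 2, against 4.69 and 7.52 CPM in non-cycling cells. Top2a, the topoisomerase that untangles replicated chromosomes, had 226 and 253 CPM in cycling cells of libraries 1 and 2, against 3.67 and 4.86 CPM in non-cycling cells. For both genes every cycling sum was above every non-cycling sum, and the log2 folds were 5.47 and 5.83. Cenpa, the histone H3 variant of centromeres, had 196 and 232 CPM in cycling cells of libraries 1 and 2, against 8.48 and 9.45 CPM in non-cycling cells. Birc5, which encodes survivin of the chromosomal passenger complex, had 204 and 211 CPM in cycling cells of libraries 1 and 2, against 5.84 and 8.39 CPM in non-cycling cells. These 4 had the highest CPM of the G2/M genes in cycling cells, and Cenpa was the one with the highest level in non-cycling cells. Cdk1, the mitotic kinase itself, had 127 and 123 CPM in cycling cells of libraries 1 and 2, against 3.12 and 3.68 CPM in non-cycling cells. Ccnb1, the cyclin B1 that activates CDK1 at mitotic entry, had 56.1 and 65.8 CPM in cycling cells of libraries 1 and 2, against 0.898 and 1.41 CPM in non-cycling cells. Aurka, the spindle-pole kinase Aurora A, had 17.9 and 14.0 CPM in cycling cells of libraries 1 and 2, against 0.449 and 0.567 CPM in non-cycling cells. Aurka and Bub1 were the low genes of the list, and their cycling sums also lay above both non-cycling sums. Bub1, a spindle checkpoint kinase, had 13.3 and 14.7 CPM in cycling cells of libraries 1 and 2, against 0.225 and 0.123 CPM in non-cycling cells, with only 14 UMIs among all 6542 non-cycling cells and the widest interval of the list, log2 fold 6.34 (95% interval 5.50 to 7.29). The remaining members of the list were the proliferation marker Mki67, the cyclins Ccnb2 and Ccna2, the kinetochore gene Cenpf, the spindle gene Tpx2, the anaphase activator Cdc20 and the kinases Aurkb and Plk1. Their log2 folds ran from 4.29 for Cdc20 to 5.90 for Cenpf.

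The S phase genes were higher in cycling cells too, by less at the median. All 14 were at least 2-fold higher in both libraries, with a median log2 fold of 2.67 (2.71 in library 1 and 2.60 in library 2). Pcna, the sliding clamp of DNA polymerase, had 144 and 153 CPM in cycling cells of libraries 1 and 2, against 29.5 and 31.6 CPM in non-cycling cells. Rrm1, the large subunit of ribonucleotide reductase, had 82.7 and 82.2 CPM in cycling cells of libraries 1 and 2, against 14.6 and 15.7 CPM in non-cycling cells. Both kept a sizeable level in non-cycling cells, so that their log2 folds were 2.29 and 2.44. Tyms, thymidylate synthase, had 77.6 and 74.3 CPM in cycling cells of libraries 1 and 2, against 7.88 and 9.30 CPM in non-cycling cells. Mcm6, a subunit of the replicative helicase, had 68.4 and 73.6 CPM in cycling cells of libraries 1 and 2, against 12.8 and 12.9 CPM in non-cycling cells. Mcm5, of the same helicase ring, had 41.8 and 46.4 CPM in cycling cells of libraries 1 and 2, against 2.34 and 3.01 CPM in non-cycling cells. The subunits of this ring therefore differed in fold, from 2.04 for Mcm4 to 4.06 for Mcm5 on the log2 scale, with intervals that did not overlap (1.80 to 2.28 and 3.78 to 4.33). Ung, the uracil-DNA glycosylase that removes uracil from new DNA, had 15.3 and 14.0 CPM in cycling cells of libraries 1 and 2, against 3.04 and 3.13 CPM in non-cycling cells. Ccne2, a cyclin that activates CDK2 at the start of S phase, had 23.5 and 23.5 CPM in cycling cells of libraries 1 and 2, against 0.773 and 0.691 CPM in non-cycling cells. Ccne2 was the S gene with the highest log2 fold, 5.01 (95% interval 4.54 to 5.48), while its paralog Ccne1 had 2.41 (95% interval 2.11 to 2.71), and the intervals of these paralogs did not overlap. Rrm2, the small subunit of ribonucleotide reductase, likewise had a higher fold (4.45) than Rrm1. The others, Mcm2, Mcm3, Mcm7 and the helicase factor Gins2, had log2 folds between 2.61 and 2.87.

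**Figure D2:**
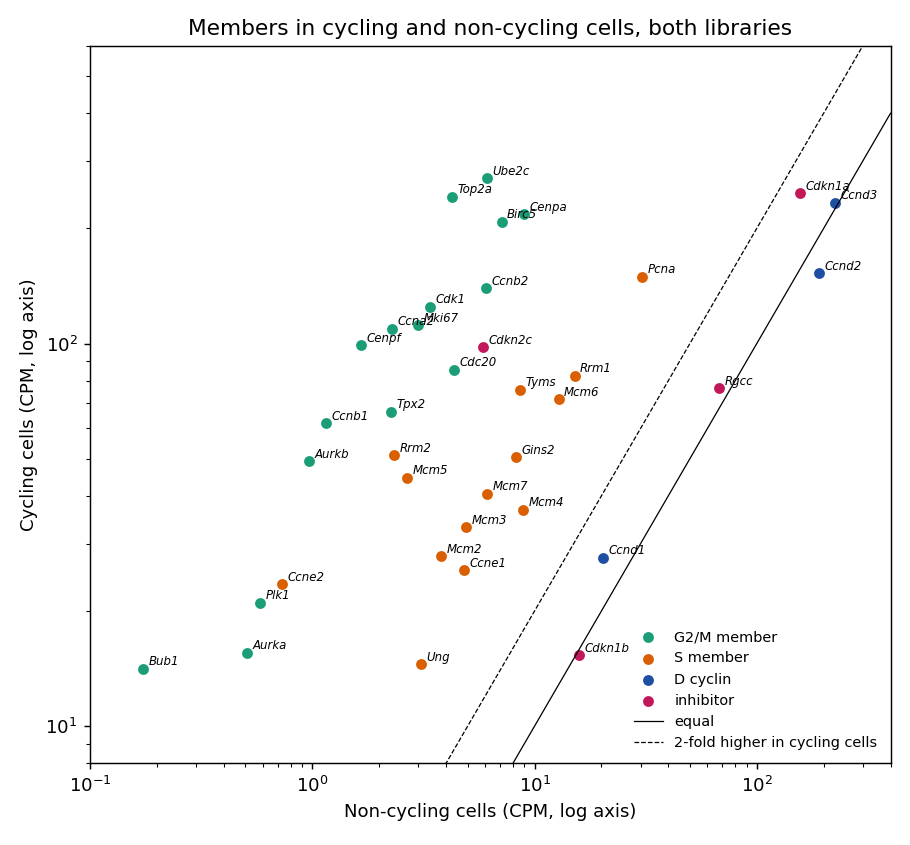
CPM of each of the 37 genes in non-cycling cells (x axis) and in cycling cells (y axis), both libraries summed, both axes logarithmic, coloured by list. Most G2/M genes lie farther above the line of equal levels than most S genes, all 30 lie above the 2-fold line, and the D cyclins and the inhibitors other than Cdkn2c lie within 2-fold of equality.

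The order within the cycle was read from the same anchors. Each cycling cell was given an angle between 0 degrees (S anchors alone above the median) and 90 degrees (G2/M anchors alone), and the position of a gene is the mean angle of the cycling cells weighted by its UMI share in them. All 14 S genes lay before all 16 G2/M genes in each library, at 16.3 to 37.9 degrees and 53.6 to 78.9 degrees with both libraries together. The anchors are S and G2/M genes of the same programmes, so this split was largely fixed by how the angle was built. It is given as a description only. The mean angle of the cycling cells themselves was 38.5 degrees, 35.2 in library 1 and 41.0 in library 2. Positions in the libraries differed by a median of 2.93 degrees and at most by 8.86 degrees, for Mki67, and their rank correlation was 0.955 over the 30 S and G2/M genes, which share the cells and anchors of each library and are not replicates.

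Ung was earliest in both libraries, at 14.7 and 17.9 degrees, and Mcm6, at 18.0 and 20.9 degrees, was the next in library 1 and the fourth in library 2. Mcm5, Mcm3 and Mcm4 lay at 21.1, 21.2 and 21.6 degrees and could not be put in order, since they changed places between libraries. The nucleotide synthesis genes came last among the S genes, with Rrm2 at 33.6 and 36.8 degrees, Rrm1 at 33.4 and 36.9 degrees and Tyms at 37.4 and 38.3 degrees. Top2a came earliest of the G2/M genes in both libraries, at 49.0 and 56.8 degrees. Cdk1, at 54.8 and 62.1 degrees, was the next in library 1, and in library 2 Aurkb and Bub1 lay between them. Ube2c, Ccnb2, Cenpf, Plk1, Cdc20, Ccnb1 and Cenpa formed a late group between 74.2 and 78.9 degrees. Ccnb1, at 75.9 and 79.2 degrees, and Cenpa, at 77.2 and 79.9 degrees, were the last in both libraries.

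**Figure D3:**
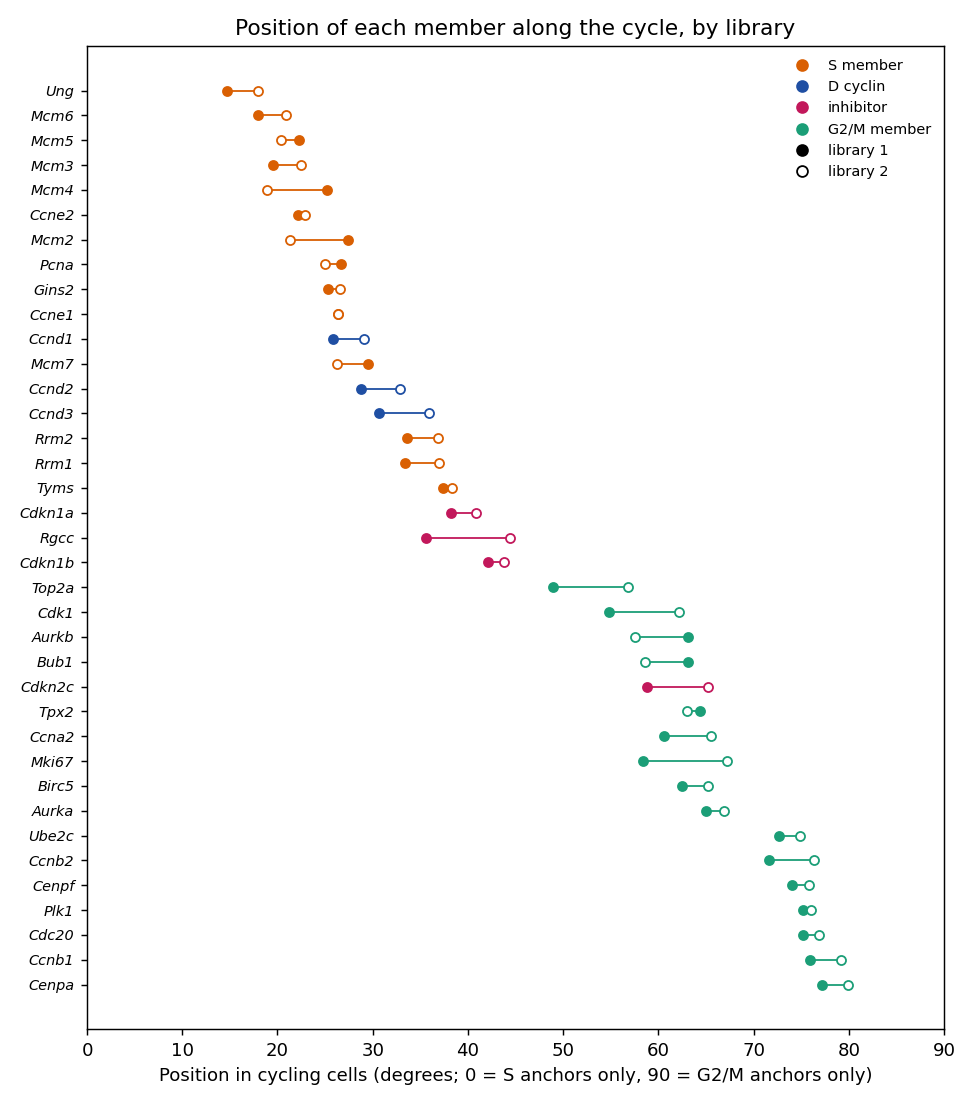
Position of each of the 37 genes in cycling cells, in degrees from 0 (S anchors alone) to 90 (G2/M anchors alone), with filled points for library 1 and open points for library 2, sorted by the position with both libraries together and coloured by list. The S genes lie between 16.3 and 37.9 degrees and the G2/M genes between 53.6 and 78.9 degrees, with the D cyclins among the S genes and Cdkn2c among the G2/M genes.

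Levels by phase group were read in CPM. Each of the 30 S and G2/M genes was highest in a phase group of its own list, in each library. The groups were set by anchors of the same programmes, so this too is a description only. With both libraries together, 7 S genes were highest in S cells (Mcm2 to Mcm6, Ung and Gins2) and 7 in cells past both thresholds (Pcna, Mcm7, Tyms, Rrm1, Rrm2, Ccne1 and Ccne2). Of the G2/M genes, 13 were highest in G2/M cells and 3 (Top2a, Aurkb and Bub1) in cells past both. Ccnb1 had 1.84 CPM in S cells, 41.5 CPM in cells past both thresholds, 173 CPM in G2/M cells and 1.15 CPM in non-cycling cells, so that it was by far highest in the latest group. Top2a had 52.9 CPM in S cells, 496 CPM in cells past both thresholds, 299 CPM in G2/M cells and 4.27 CPM in non-cycling cells. Top2a thus had UMIs in S cells already, where Ccnb1 was close to its non-cycling level. Cenpa had 6.90 CPM in S cells, 116 CPM in cells past both thresholds, 634 CPM in G2/M cells and 8.97 CPM in non-cycling cells, and Ube2c had 11.0 CPM in S cells, 289.7 CPM in cells past both thresholds, 650.3 CPM in G2/M cells and 6.12 CPM in non-cycling cells. Mcm6 had 106 CPM in S cells, 80.7 CPM in cells past both thresholds, 10.6 CPM in G2/M cells and 12.8 CPM in non-cycling cells, which placed its highest level at the other end. Between G2/M and S cells all 16 G2/M genes were 2-fold or more higher and 11 of 14 S genes 2-fold or more lower, where 6.33% of 7715 genes were higher and 3.23% lower. The 3 S genes within 2-fold were Tyms, Rrm1 and Rrm2, at log2 folds of -0.38, -0.54 and -0.33. In S over non-cycling cells, all 14 S genes and 6 of 7 measured G2/M genes (Mki67, Top2a, Cdk1, Ccna2, Birc5 and Tpx2) were 2-fold or more higher, where 4.11% of 7291 genes were higher and 0.302% lower. In cells past both thresholds over non-cycling cells, all 16 G2/M and 14 S genes were higher, where 10.8% of 7511 genes were higher and 1.81% lower. In G2/M over non-cycling cells, all 16 G2/M genes were higher and 5 of 8 measured S genes (Mcm7, Tyms, Rrm1, Rrm2 and Gins2), where 8.37% of 7446 genes were higher and 1.2% lower.

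Promoter sequence is shown for 6 of these genes, since S and G2/M genes are known to be driven through different promoter elements. E2F sites serve replication genes, and CCAAT boxes (bound by NF-Y) together with the cell cycle genes homology region (CHR, bound by the MuvB complex) serve mitotic genes. RefSeq promoters (build GRCm38.p6) matched 29 of the 37 genes, and the 250 bases before each transcription start were searched on both strands for TTTGAA (CHR), CCAAT, and an E2F set of TTCCCGC or TTGGCGC or TTCGCGC or TTGCCGC, whose members can overlap each other and CCAAT. The 6 examples were chosen after the matches were seen: the S genes Mcm6 and Mcm5, the inhibitor Cdkn2c, and the G2/M genes Top2a, Cdc20 and Ccnb1, early to late. Windows were chr1:128359706-128359955 for Mcm6 (minus strand), chr8:75109259-75109508 for Mcm5 (plus strand), chr4:109666757-109667006 for Cdkn2c (minus strand), chr11:99024190-99024439 for Top2a (minus strand), chr4:118437344-118437593 for Cdc20 (minus strand) and chr13:100786487-100786736 for Ccnb1 (minus strand). Each is written 5′ to 3′ towards the start on the gene's own strand, with capitals marking the matches, either way round.
Mcm6: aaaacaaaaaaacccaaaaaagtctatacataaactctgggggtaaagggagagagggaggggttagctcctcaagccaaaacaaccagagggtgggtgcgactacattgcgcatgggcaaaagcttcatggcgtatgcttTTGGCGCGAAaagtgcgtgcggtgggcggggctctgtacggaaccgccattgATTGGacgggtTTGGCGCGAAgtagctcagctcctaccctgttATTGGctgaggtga
Mcm5: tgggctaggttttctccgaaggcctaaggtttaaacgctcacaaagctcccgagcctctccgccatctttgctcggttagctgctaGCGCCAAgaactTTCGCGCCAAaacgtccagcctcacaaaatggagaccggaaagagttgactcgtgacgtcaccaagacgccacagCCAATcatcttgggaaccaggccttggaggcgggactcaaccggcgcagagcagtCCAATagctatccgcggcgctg
Cdkn2c: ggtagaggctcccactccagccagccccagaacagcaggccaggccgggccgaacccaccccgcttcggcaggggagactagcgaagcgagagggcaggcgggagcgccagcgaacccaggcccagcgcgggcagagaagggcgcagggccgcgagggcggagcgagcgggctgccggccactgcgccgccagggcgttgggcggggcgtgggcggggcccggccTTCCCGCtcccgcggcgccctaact
Top2a: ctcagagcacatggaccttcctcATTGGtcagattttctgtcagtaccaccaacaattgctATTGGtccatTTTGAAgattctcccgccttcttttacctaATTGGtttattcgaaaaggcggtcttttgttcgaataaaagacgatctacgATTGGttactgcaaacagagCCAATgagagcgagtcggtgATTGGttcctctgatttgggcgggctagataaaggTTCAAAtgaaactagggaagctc
Cdc20: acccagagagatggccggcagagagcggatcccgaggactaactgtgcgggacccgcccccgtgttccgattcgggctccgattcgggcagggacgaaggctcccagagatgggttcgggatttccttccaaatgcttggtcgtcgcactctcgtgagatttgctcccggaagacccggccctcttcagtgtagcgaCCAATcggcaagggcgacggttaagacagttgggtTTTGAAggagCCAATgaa
Ccnb1: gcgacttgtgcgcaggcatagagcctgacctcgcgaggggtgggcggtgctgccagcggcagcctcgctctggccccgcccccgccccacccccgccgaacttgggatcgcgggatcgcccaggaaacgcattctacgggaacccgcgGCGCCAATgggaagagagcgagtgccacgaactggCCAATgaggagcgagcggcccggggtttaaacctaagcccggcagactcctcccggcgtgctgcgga

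Mcm6 and Mcm5 held E2F matches and CCAAT boxes, Top2a and Cdc20 held CHR and CCAAT matches with no E2F match, and in Ccnb1 the E2F match shared bases with a CCAAT box. A CCAAT box was found in 12 of 13 matched G2/M genes and 8 of 11 matched S genes, against 33.8% of 32851 promoters. The CHR was found in 6 of 13 G2/M genes and 1 of 11 S genes (Mcm2), against 15.99% of promoters, and each of those 6 also held a CCAAT box, a pairing present in 5.55% of promoters. An E2F match was found in 3 of 13 G2/M genes and 5 of 11 S genes, against 7.89% of promoters. Genes were counted once over all their starts, and a match in these letters is no evidence of binding. Of the earliest and latest genes, Ung held none of the 3 elements and Cenpa held 2 CCAAT boxes alone.

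Outside cycling cells the G2/M genes were scarce and the S genes less so. To set cells on 1 depth, each was thinned to 7470 UMIs, which left out 375 cells of library 1 and 314 of library 2 and kept 283 cycling and 5913 non-cycling cells. The median G2/M gene then had a UMI in 1.92% of non-cycling cells and the median S gene in 3.71%, against 3.14% and 6.28% unthinned. Pcna was found in 53.7% of cycling cells and 20.3% of non-cycling cells, and Rrm1 in 40.6% and 10.0% of these. Mcm5 was found in 23.7% of cycling and 1.76% of non-cycling cells, and Ccne2 in 12.7% and 0.440%. Pcna and Rrm1 were the most and Ccne2 and Mcm5 the least widely found S genes outside the cycling cells. Among G2/M genes, Cenpa was found in 40.3% of cycling and 5.34% of non-cycling cells, and Birc5 in 53.4% and 5.11%. Bub1 was found in 10.2% of cycling and 0.169% of non-cycling cells, and Aurka in 8.83% and 0.440%.

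Erythroid-like barcodes, taken as the cells least likely to hold these RNAs, were set beside these shares, thinned to the same 7470 UMIs. There were 14 of them, all of library 1, and 0 of 14 cells had a UMI of Pcna, Rrm1 or Mcm6. By a limit of 3 cells in 14, a rule of thumb and not an exact interval, this allows a share of up to 21.4%, which bounds little. Ube2c was found in 4 of the 14 (28.6%), above its 4.33% in non-cycling cells, so these barcodes give no background level for it. Birc5, Cenpa, Ccnb2 and Tyms were each found in 1 of the 14 (7.14%), beside non-cycling shares of 5.11%, 5.34%, 3.62% and 6.02%, but 1 cell fixes no level. The level in non-cycling cells as a percentage of that in cycling cells did not keep 1 ratio over genes. It ran from 1.23% for Bub1 to 5.10% for Cdc20 in the G2/M list, and from 3.11% for Ccne2 to 24.2% for Mcm4 in the S list. For comparison, it was 96.2% for Ccnd3 and 6.02% for Cdkn2c. Of all UMIs of Pcna, 77.1% lay in non-cycling cells, against 22.5% of those of Top2a.

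A part of the G2/M UMIs outside cycling cells lay in cells with UMIs of several G2/M genes. In 58.4% of the 6542 non-cycling cells no G2/M gene had a UMI, and 173 cells (2.64%) had 3 or more of the 16 genes, together 22.1% of the G2/M UMIs outside the cycling cells. These cells were picked by their G2/M genes, so their levels are a description only. The share expected if UMIs were scattered over cells independently was not computed, so no gathering is read from these counts. They had 86.0 CPM of Cenpa and 68.7 CPM of Ccnb2, but 18.0 CPM of Top2a and 2.69 CPM of Mcm5. Their Mcm5 level was that of the other non-cycling cells, 2.68 CPM, and 33 of the 173 lay in cluster 6. The 8 endothelial markers summed to 1153 CPM in the 173 cells, against 95.6 CPM in all non-cycling cells, and Rgcc had 242 CPM, against 62.0 CPM in the other non-cycling cells. The part of endothelial RNA in these levels was not tested.

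Cells past the G2/M threshold grouped together. No member or anchor gene was used to cluster the cells, but genes outside the lists, such as the histone gene Hist1h2ap, were not left out. The grouping is therefore not independent of the cell cycle. Cluster 6 (269 cells, led by Hist1h2ap, Ube2c and Top2a) held 82 of 96 G2/M cells and 76 of 81 cells past both thresholds, but 36 of 166 S cells. The other 130 S cells were spread over clusters of several precursor states, 39 of them in the committed cluster and 27 in the Dpp4-type cluster. S cells in cluster 6 had 122 CPM of Top2a and 284 CPM of Pcna, against 26.7 and 138 CPM in S cells elsewhere, whereas Mcm6 was similar, at 117 and 102 CPM. The 75 cells of cluster 6 below both thresholds had 133 CPM of Ccnb2 and 152 CPM of Cenpa, with 9.18 CPM of Top2a and no UMI of Mcm5. Because the leading genes of the cluster include several of the 37, this split is given as a description.

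None of the 3 D cyclins passed 2-fold between cycling and non-cycling cells in either library. With both libraries together 6.35% of all measured genes were 2-fold or more higher and 0.203% lower, so that nothing is read from this count. Ccnd1 (chr7:144929931-144939925, GRCm38), the D cyclin induced by mitogens, had 35.1 and 38.1 CPM in S cells of libraries 1 and 2, 18.6 and 22.3 CPM in cells past both thresholds, 14.6 and 22.4 CPM in G2/M cells and 19.1 and 21.5 CPM in non-cycling cells. S cells were the highest group in both libraries, with a log2 fold over non-cycling cells of 0.86 (95% interval 0.52 to 1.18). The other groups overlapped. Without the clusters of other cell types, Ccnd1 in library 1 had 26.0 CPM (95% interval 16.5 to 39.0) in S cells. Its non-cycling level there, 18.4 CPM (17.0 to 19.8), overlapped this. In library 2 the same levels, 38.5 (28.3 to 51.2) and 20.6 CPM (19.2 to 22.0), stayed apart. Ccnd2 (chr6:127125162-127152193) had 215 and 189 CPM in S cells, 100.2 and 118 CPM past both thresholds, 125 and 115 CPM in G2/M cells and 188 and 195 CPM in non-cycling cells. Ccnd2 was thus lower in G2/M than in non-cycling cells in both libraries, by a log2 fold of -0.69 (95% interval -0.92 to -0.47), while S cells lay at the non-cycling level. Ccnd3 (chr17:47505051-47599691) had 279 and 265 CPM in S cells, 202 and 249 CPM past both thresholds, 183 and 179 CPM in G2/M cells and 225 and 225 CPM in non-cycling cells. All 3 D cyclins were lower in G2/M than in S cells in both libraries, at log2 folds of -0.90, -0.76 and -0.59, beside a median of 0.11 over all genes. Their positions, 27.6, 31.0 and 33.6 degrees, lay before the mean angle of the cycling cells. For the comparison of G2/M with non-cycling cells, TMM scaling would take a further 0.24 off each log2 fold.

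The inhibitors differed among themselves. Cdkn2c (chr4:109660876-109667189), which encodes the INK4 inhibitor p18 of CDK4 and CDK6, was the only one of the 4 past 2-fold in both libraries. It had 21.3 and 21.9 CPM in S cells, 145 and 139 CPM past both thresholds, 175 and 175 CPM in G2/M cells and 4.94 and 6.83 CPM in non-cycling cells. Each group was separated from the next in both libraries except the groups past both thresholds and in G2/M, whose intervals overlapped, and the log2 fold of cycling over non-cycling cells was 4.05 (95% interval 3.87 to 4.24). Its position of 58.8 and 65.2 degrees fell among the G2/M genes, and it was found in 31.8% of cycling cells and 4.21% of non-cycling cells after thinning. Cdkn1a (chr17:29090976-29100727), which encodes the p53-inducible inhibitor p21, had 212 and 216 CPM in S cells, 282 and 359 CPM past both thresholds, 208 and 233 CPM in G2/M cells and 149 and 165 CPM in non-cycling cells. All 3 cycling groups were above the non-cycling cells in both libraries, most of all the cells past both thresholds, at a log2 fold of 1.06 (95% interval 0.91 to 1.20). Beside this, erythroid markers summed to 389 CPM in S cells, 6336 CPM past both thresholds, 691 CPM in G2/M cells and 2548 CPM in non-cycling cells, and the macrophage markers to 69.5, 333, 76.2 and 78.4 CPM. The 5 mast cell or granulocyte markers summed to 169.8 CPM past both thresholds, with Cpa3, Mcpt4 and Tpsb2 at 0, and to at most 1.86 CPM in the other groups. Without the clusters of other cell types, Cdkn1a had 193 CPM in S cells and 332 CPM past both thresholds, again the highest. G2/M cells there had 202 CPM and non-cycling cells 152 CPM. In library 1 the S cells then had 167 CPM (95% interval 142 to 197), overlapping the 144 CPM (141 to 148) of non-cycling cells. In library 2 these levels were 212 (187 to 240) and 160 CPM (156 to 164), which stayed apart. Of 11 measured p53 target genes in a list, 0 were 2-fold or more higher or lower in cycling cells, where 6.35% of all genes were higher and 0.203% lower, so that nothing is read from this count. Cdkn1b (chr6:134920401-134925513), which encodes the inhibitor p27, had 13.3 CPM in S cells, 13.8 CPM in cells past both thresholds, 19.7 CPM in G2/M cells and 15.9 CPM in non-cycling cells, all with overlapping intervals.

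Rgcc (chr14:79288756-79301645), a regulator of the cell cycle known as a response gene to complement, had 87.3 and 74.6 CPM in S cells, 35.3 and 35.4 CPM past both thresholds, 62.4 and 132 CPM in G2/M cells and 54.0 and 81.5 CPM in non-cycling cells. Its G2/M level in library 2 was the highest of all, and 4 of the 61 G2/M cells there were endothelial-like. Endothelial-like cells had 907 and 1003 CPM of Rgcc outside the cycle, more than any precursor cluster. Without the endothelial-like, macrophage-like and erythroid-like clusters, an alternative chosen after the data were seen, Rgcc had 55.6 CPM in S cells, 33.5 CPM past both thresholds, 38.7 CPM in G2/M cells and 58.5 CPM in non-cycling cells. The direction of cycling over non-cycling cells then turned, with a log2 fold of -0.38 in precursor clusters alone and 0.17 with all cells. With TMM or DESeq2 scaling, Ccnd3 also turned, with a log2 fold of -0.11 against 0.06 by total count. Of the other D cyclins and inhibitors, Ccnd1, Ccnd2, Cdkn1a and Cdkn2c kept their direction in precursor clusters alone, and Cdkn2c there had 184 CPM in G2/M and 5.84 CPM in non-cycling cells.

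**Figure D4:**
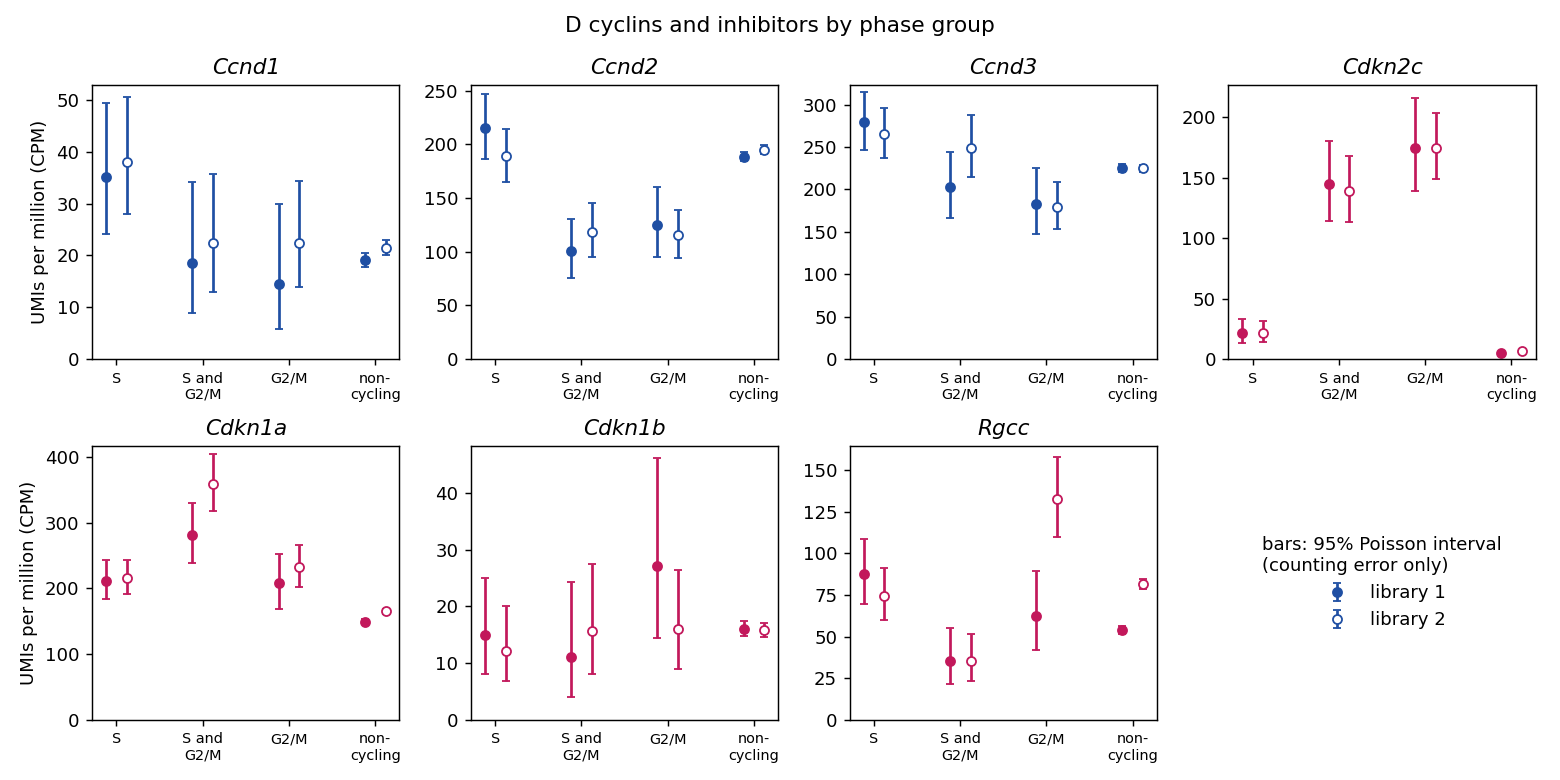
CPM of the 3 D cyclins (blue) and 4 inhibitors (red) in S cells, cells past both thresholds, G2/M cells and non-cycling cells, in library 1 (filled) and library 2 (open), with bars for exact 95% Poisson intervals that cover counting error only. Cdkn2c is low in non-cycling cells and high from the cells past both thresholds on, Ccnd2 is lower in the groups past the G2/M threshold, and the high G2/M level of Rgcc is seen in library 2 alone.

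Of 44 further cell cycle genes listed by name, 30 were measured in the comparison of cycling with non-cycling cells, and 21 were 2-fold or more higher and 0 lower, beside 6.35% and 0.203% of all genes. Cdkn3, a phosphatase that acts on CDK1 and CDK2, had 48.8 CPM in cycling and 1.38 CPM in non-cycling cells (log2 fold 5.15). Mybl2, which encodes B-MYB, had 15.9 CPM in cycling and 0.732 CPM in non-cycling cells, and Foxm1 had 24.5 and 1.58 CPM. The checkpoint gene Mad2l1 had 49.3 CPM in cycling and 2.64 CPM in non-cycling cells. Among inhibitors outside the 37, Cdkn2d, the INK4 inhibitor p19, was higher in cycling cells too, with 82.2 against 23.4 CPM (log2 fold 1.81). E2f1 had 61.7 CPM in cycling and 23.95 CPM in non-cycling cells (log2 fold 1.37). Of 16 measured immediate early genes, 0 were 2-fold or more apart, where 6.35% of all genes were higher and 0.203% lower, so that nothing is read from this count.

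The precursor states were compared in non-cycling cells alone. Leiden clustering gave a committed preadipocyte-like cluster (1623 cells, 7 of 12 markers raised, among them Col15a1 and Col4a1), a Dpp4-type progenitor-like cluster (1402 cells, 4 of 12 markers raised) and an F3-type stromal-like cluster (324 cells, 5 of 7 markers raised). Clusters 1, 3 and 4 matched no marker list and stay unnamed, and the names were rebuilt here from markers, so they need not be those of the study. The Dpp4-type name rests on 4 raised markers, and cluster 1 also had Bmp7 and Limch1 of that list among its leading genes. Cycling cells made up 2.46% of the committed cluster (40 of 1623 cells), 0.617% of the F3-type cluster (2 of 324 cells) and 2.14% of the Dpp4-type cluster (30 of 1402 cells). Since cluster 6 took most cells past the G2/M threshold, these shares are nearly all S cells and leave out most cells past the G2/M threshold. When all 6771 cells of the precursor clusters were instead ranked by the ratio of committed to Dpp4-type marker UMIs and cut into 5 bins of equal size, from low to high, 3.84%, 6.57%, 4.95%, 3.32% and 5.31% were cycling, with no steady rise or fall. The same ranking in library 1 gave 2.81% in the lowest and 5.97% in the highest bin, and in library 2 it gave 4.68% and 4.76%.

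Ccnd1 and Ccnd3 were lower in committed than in Dpp4-type cells, in both libraries. Ccnd1 had 7.07 and 9.84 CPM in committed cells of libraries 1 and 2, against 23.1 and 27.3 CPM in Dpp4-type cells, a log2 fold of -1.54 (95% interval -1.82 to -1.27). Ccnd3 had 177 and 182 CPM in committed cells, against 271 and 280.0 CPM in Dpp4-type cells, a log2 fold of -0.61 (95% interval -0.68 to -0.55). Ccnd2 had 171 and 174 CPM in committed cells, against 209 and 213 CPM in Dpp4-type cells, and with a log2 fold of -0.29 (95% interval -0.36 to -0.22) it did not reach 1.5-fold. The libraries did not overlap between the classes for any of these cyclins. Between these classes 16.2% of 7007 measured genes were 1.5-fold or more lower and 9.6% higher, with a median log2 fold of -0.16, so that of the D cyclins Ccnd1 lay farthest from the shift of all genes. With TMM scaling, which adds 0.16 to each value, Ccnd1 was at -1.38, and Ccnd3 at -0.45 fell short of 1.5-fold. In the 5 bins of the marker ratio, from Dpp4-type to committed, Ccnd1 had 22.5, 23.1 and 25.2 CPM in the first 3 and 8.80 CPM in the last, and Ccnd3 had 264, 253, 232, 194 and 178 CPM. Ccnd3 stepped down at each bin, and Ccnd1 after the third.

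With both libraries together no inhibitor at 10 CPM or more reached 1.5-fold between committed and Dpp4-type cells, but with 3000 variable genes Rgcc did, at a log2 fold of -1.19 against -0.53. Cdkn1a had 131 and 119 CPM in committed cells, against 135 and 145 CPM in Dpp4-type cells, and Cdkn1b had 11.3 and 11.6 CPM, against 16.8 and 15.02 CPM. Rgcc had 36.2 and 43.9 CPM in committed cells, against 43.1 and 78.4 CPM in Dpp4-type cells, past 1.5-fold in library 2 alone (log2 fold -0.84, against -0.25 in library 1), where 18.8% of genes were lower in library 2 and 16.1% in library 1. In the 5 bins of the marker ratio, Rgcc had 73.7, 82.3, 54.8, 39.1 and 37.5 CPM, and the highest bin was 1.5-fold or more below the lowest (log2 fold -0.97). Between these 2 bins, 924 of 6989 measured genes were 1.5-fold or more lower and 673 higher. Cdkn2c was below 10 CPM in both classes, with 6.49 and 6.98 CPM in committed and 3.27 and 4.87 CPM in Dpp4-type cells. Of the 14 S genes, 4 reached 10 CPM in either class, and Rrm1 alone passed 1.5-fold, with 9.65 CPM in committed and 22.7 CPM in Dpp4-type cells (log2 fold -1.23). None of the 16 G2/M genes reached 10 CPM. Of 15 measured further cell cycle genes, 1 was 1.5-fold or more higher and 3 lower. Over all 7007 measured genes 9.6% were higher and 16.2% lower. Nothing is read from the counts of the inhibitors, the S genes or these further genes. Myc, a growth-promoting transcription factor, had 194 CPM in committed and 81.7 CPM in Dpp4-type cells (log2 fold 1.25). Cdkn1c, an imprinted gene for the inhibitor p57, had 262 CPM in committed and 594 CPM in Dpp4-type cells (log2 fold -1.18), while E2f7 and E2f1 had log2 folds of -1.97 and -0.76.

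F3-type cells had more Cdkn2c than Dpp4-type cells, and less Ccnd3 by an amount that depended on the clustering. Cdkn2c had 12.9 and 18.4 CPM in F3-type cells of libraries 1 and 2, against 3.27 and 4.87 CPM in Dpp4-type cells, a log2 fold of 1.99 (95% interval 1.45 to 2.51). Ccnd3 had 164 and 167 CPM in F3-type cells, against 271 and 280.0 CPM in Dpp4-type cells, a log2 fold of -0.73 (95% interval -0.86 to -0.61). Both genes passed 1.5-fold, where 11.1% of 7165 genes were higher and 11.9% lower. With 3000 variable genes in the clustering, Ccnd3 fell short of it, with a log2 fold of -0.27, and Cdkn2c was at 1.51. That clustering gave a Dpp4-type cluster of 2268 cells, in place of 1402, and 2 F3-type clusters of 383 and 210 cells. Cdkn1a had 183 and 229 CPM in F3-type cells, against 135 and 145 CPM in Dpp4-type cells, with a log2 fold of 0.57 (95% interval 0.45 to 0.69) that was 0.04 with 3000 variable genes. Ccnd1 had 23.5 and 18.4 CPM in F3-type cells, against 23.1 and 27.3 CPM in Dpp4-type cells, with overlapping intervals, and Ccnd2 had a log2 fold of -0.46 (95% interval -0.59 to -0.33). Cdkn1b had a log2 fold of -0.45. Rgcc had 39.8 and 49.7 CPM in F3-type cells, against 43.1 and 78.4 CPM in Dpp4-type cells. Its log2 fold was -0.38 with both libraries together, -0.11 in library 1, -0.66 in library 2 and -0.94 with 3000 variable genes. Of the 4 measured S genes, Mcm6 and Rrm1 were lower, at log2 folds of -0.77 and -1.09. Of 15 further cell cycle genes, Myc was higher (0.82), and Cdkn1c (-2.24), E2f7 (-2.49) and Fzr1 (-0.63), an activator of the anaphase-promoting complex, were lower on the log2 scale.

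Across all 7 precursor clusters, Ccnd1 with both libraries together ran from 8.53 CPM in the committed cluster, through 15.3 in cluster 6, 16.7 in cluster 3, 21.0 in the F3-type cluster, 23.3 in cluster 1 and 24.9 in the Dpp4-type cluster to 25.5 CPM in cluster 4. The committed cluster lay below clusters 3, 5, 1, 2 and 4 by more than the counting intervals, cluster 6 overlapped its neighbours on both sides, and no other neighbours in this order were separated. Ccnd3 ran from 166 CPM in the F3-type cluster and 179.9 CPM in the committed cluster to 275 CPM in the Dpp4-type cluster. Ccnd2 ran from 127 CPM in cluster 6 and 153 CPM in the F3-type cluster to 217 CPM in cluster 1. The 75 cells of cluster 6 below both thresholds had 133 CPM of Ccnb2 and 152 CPM of Cenpa. Their levels are therefore not taken as those of resting cells. Endothelial-like cells, outside the precursors, had more Ccnd1 (84.9 and 112 CPM) and Cdkn1a (505 and 656 CPM) than any precursor cluster.

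**Figure D5:**
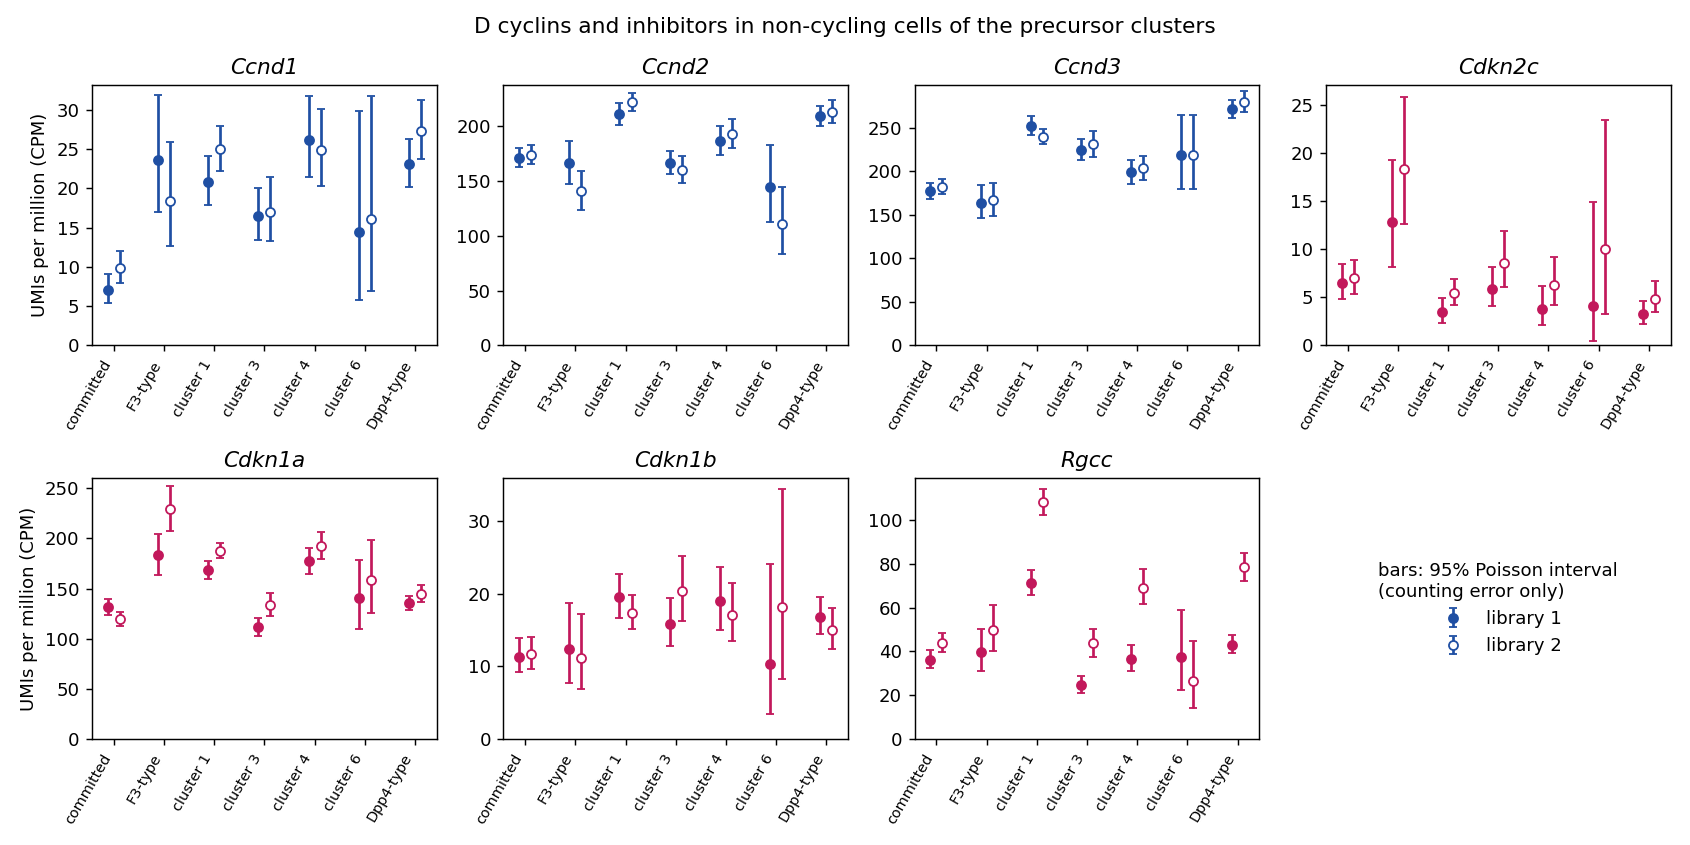
CPM of the 3 D cyclins (blue) and 4 inhibitors (red) in non-cycling cells of the 7 precursor clusters, in library 1 (filled) and library 2 (open), with bars for exact 95% Poisson intervals that cover counting error only. Ccnd1 is lowest in the committed cluster and Ccnd3 is highest in the Dpp4-type cluster, Cdkn2c is highest in the F3-type cluster, and Rgcc is higher in library 2 than in library 1 in each of these clusters but cluster 6. The cluster 6 cells shown lie below both thresholds but had 133 CPM of Ccnb2 and 152 CPM of Cenpa.

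The libraries were compared as library 1 over library 2, with no milk attached. In non-cycling cells Rgcc was the single member of the list past 1.5-fold, with 54.0 CPM in library 1 and 81.5 CPM in library 2 and a log2 fold of -0.59 (95% interval -0.67 to -0.51), where 0.281% of 6756 genes were 1.5-fold or more lower and 0.311% higher. The difference was seen in Dpp4-type cells (43.1 CPM in library 1 and 78.4 in library 2), in cluster 1 (71.4 and 108), in cluster 3 (24.6 and 43.6) and in cluster 4 (36.4 and 69.1), and was smaller in committed cells (36.2 and 43.9). Within Dpp4-type cells alone, Mcm4 also passed 1.5-fold, with 6.43 CPM in library 1 and 10.9 CPM in library 2, a log2 fold of -0.76 (95% interval -1.26 to -0.28), where 0.608% of 6913 genes were lower and 0.492% higher. For Rgcc in cluster 6 the order was the other way, with 37.2 CPM in library 1 and 26.2 CPM in library 2 and overlapping intervals. Endothelial markers summed to 102 CPM in non-cycling cells of library 1 and 89.2 CPM in those of library 2. In precursor clusters alone the log2 fold of Rgcc was -0.73. The part of endothelial RNA in the library difference was not tested. Rgcc lay near the 1.5-fold line, and with other phase thresholds or anchors its log2 fold was -0.58 and no member passed.

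The D cyclins differed by less than 1.5-fold between libraries in non-cycling cells, with log2 folds of -0.17 (95% interval -0.32 to -0.03) for Ccnd1, -0.05 for Ccnd2 and 0.00 (95% interval -0.04 to 0.05) for Ccnd3. Of the inhibitors, Cdkn1a was at -0.14 (95% interval -0.19 to -0.09), Cdkn1b at 0.03 (95% interval -0.13 to 0.19) and Cdkn2c, below 10 CPM, at -0.47 (95% interval -0.74 to -0.20). Within cycling cells, Plk1 was lower in library 1 (14.3 CPM, against 25.6 CPM in library 2) and Rrm2 was higher (64.3 against 42.3 CPM), beside 4.07% of 7596 genes lower and 4.77% higher. Over all kept cells, Top2a, Ccna2 and Ube2c were 1.5-fold or more lower in library 1, where 0.352% of 6816 genes were lower and 0.337% higher, and Ube2c had 14.2 CPM in library 1 and 28.1 CPM in library 2 and a log2 fold of -0.99 (95% interval -1.13 to -0.84). The median log2 fold was -0.56 over the 8 G2/M genes measured in all kept cells and -0.20 over all 16 in cycling cells, where none of Top2a, Ccna2 and Ube2c passed, and the larger difference stood beside the lower share of G2/M cells in library 1 (1.06%, against 1.70% in library 2).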

How the data were processed

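Droplet 3′ RNA counts came from sorted adipocyte precursors, 1 library per condition. The deposited table gives the UMI count of every gene in every barcode as a whole number, with no normalization by the authors. Cell Ranger (version not given), Seurat 3.0.1 and mm10 are named in the submitters' processing notes, with no role stated.

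Kept barcodes had at least 500 genes and at most 10% mitochondrially encoded UMIs. No doublet caller was used, and the main values include cells of high UMIs. Cells above the 95th percentile of UMIs were left out in an alternative setting only. A phase threshold was the median plus 4 scaled median absolute deviations (MAD) of the anchor share. Clusters used counts scaled to 10000 per cell, 2000 variable genes without members, anchors, listed cell cycle, p53 target, immediate early, mitochondrially encoded or ribosomal protein genes, 30 components, 15 neighbours and Leiden resolution 0.5 (scanpy 1.11.5). Clusters were named where 3 or more markers, and at least 33.3% of a list, were raised (20 CPM and 2-fold over other cells). UMI sums have exact Poisson intervals, log2 folds conditional exact intervals and shares Clopper-Pearson intervals. Measured genes had at least 10 CPM in either sum. Folds were called at 2-fold between phases and 1.5-fold between classes and libraries. edgeR 4.0.16 (TMM) and DESeq2 1.42.0 gave scaling alternatives only. The fold intervals were tested only on simulated counts drawn from the Poisson model that they assume. That says nothing of variation between cells or libraries.

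Full values are given for D cyclins, inhibitors, and the S and G2/M genes with the highest level in cycling cells, earliest or latest position, or most or least detection in non-cycling cells. Other genes named were added after their values were seen. Members and lists were chosen with earlier results of these data known. Coordinates are from GENCODE M21 (GRCm38), matched by identifier for 37 of 37 genes, on 16 chromosomes.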

Additional observations from a re-analysis of the deposited data

How the results depend on the processing

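The main values not given here stayed within the 95% interval of the value reported, or within 1.5 times for a count. Of the values of single genes, 37 moved outside that interval, and only some of these are given here. The share of cycling cells moved most with the phase threshold. At 3 scaled MAD it was 6.26% in library 1 and 7.27% in library 2, at 6 scaled MAD 3.14% and 4.56%, and without cells above the 95th percentile of UMIs 3.82% and 4.24%. The G2/M median log2 fold was 4.90 at 3 scaled MAD and 4.92 without the cells of high UMIs. All 30 S and G2/M genes stayed highest in the phase groups of their list under each setting tried. Unthinned, the median G2/M gene was found in 3.14% and the median S gene in 6.28% of non-cycling cells. For committed over Dpp4-type cells, the log2 fold of Ccnd2 was -0.16 at Leiden resolution 1, -0.12 with TMM scaling, -0.14 with DESeq2 scaling and -0.18 between the highest and lowest of 5 bins of the marker ratio. That of Ccnd3 was -0.45 with 3000 variable genes, -0.45 with TMM scaling and -0.46 with DESeq2 scaling, each short of 1.5-fold. With 3000 variable genes, Rgcc was at -1.19 and Cdkn1a at -0.46 for committed over Dpp4-type cells, and Ccnd3 was at -0.27, Cdkn1a at 0.04 and Rgcc at -0.94 for F3-type over Dpp4-type cells. In that clustering the Dpp4-type cluster held 2268 cells. Cdkn1a, committed over Dpp4-type, was at 0.01 with TMM scaling. For library 1 over library 2, the log2 fold of Rgcc was -0.79 with thinned cells, -0.73 without cells of high UMIs and -0.73 in precursor clusters alone, and the count of members past 1.5-fold was 0 at 3 scaled MAD, 0 at 6 scaled MAD and 0 with G2/M anchors that leave out broadly expressed genes. Cycling over non-cycling, Ccnd3 changed sign with scaling, -0.11 with either TMM or DESeq2 against 0.06 by total count, and Rgcc did so at 6 scaled MAD (-0.18) and in precursor clusters alone (-0.38). Without cells of high UMIs no cluster met the Dpp4-type rule, so the classes were not compared in that setting. The cause of these differences was not tested. The alternatives with precursor clusters alone and with 5 bins of the marker ratio were chosen after the data were seen. Genes near 10 CPM in the smaller groups, such as Aurka and Bub1, rest on few UMIs. No paired analysis was possible because the result comes from no test and there is 1 library per condition.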
